A study of Caenorhabditis elegans with 6 samples.

Results

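The 33 genes described here encode the machinery that holds chromosomes to the spindle in *C. elegans*: the centromere and kinetochore proteins, the spindle checkpoint, the chromosomal passenger complex and the chromosomal kinesins. They were chosen by name, as the rows of the count tables whose WormBase symbol is one of 33 listed symbols. All 33 were found among the 46772 genes of the tables, and all 33 were among the 9431 genes with enough counts to be tested. Every member is annotated as protein coding, and each had at least 572 counts in every library.

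RNA was sequenced from gonads dissected from young adult hermaphrodites of 2 genotypes, with 3 biological replicates of each. The control was the wildtype strain N2, and the mutant carried *set-2(bn129)*, a loss-of-function allele of the gene for the worm SET1 methyltransferase of histone H3 lysine 4. Mutant animals were homozygotes from heterozygous mothers, each sample pooled the distal gonad arms of several animals, and no other allele or treatment was used. The study asked whether loss of *set-2* alters germline expression of genes that act in chromosome structure or segregation.

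Worm chromosomes are holocentric, which means that centromeric chromatin, marked by the histone H3 variant CENP-A, forms along their whole length. In mitotically dividing cells this chromatin recruits CENP-C, then the KNL-1, MIS-12 and NDC-80 complexes that bind microtubules, and the checkpoint proteins that delay anaphase until all chromosomes are attached. Oocyte meiosis builds its spindle without centrosomes, the passenger complex gathers in a ring between homologs, and transcripts for the first embryonic divisions are made in the germline and stored. The distal gonad holds mitotic and early meiotic nuclei. Whether the transcripts measured were in use there or stored was not tested.

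The libraries held between 23403396 and 30724547 counts, and replicates of a genotype differed by more than sampling noise, so each was kept as a sample. All 18 listed germline markers were expressed (1 higher and 8 lower past the test), with a sum of 6120 to 6580 CPM (counts scaled to a library of standard size) in wildtype and 5300 to 6060 CPM in *set-2* libraries, while 6 of 12 sperm markers had 3 counts or fewer in every library. Markers of other tissues were lower in *set-2* libraries. The sums were 219 to 578 CPM in wildtype and 69.4 to 162 CPM in *set-2* for 11 intestine genes, 242 to 429 and 183 to 211 CPM for 10 muscle genes, 137 to 262 and 93.0 to 104 CPM for 10 hypodermis genes (6 of them at 3 counts or fewer), and 1510 to 1770 and 1010 to 1120 CPM for 10 somatic gonad genes. For 12 neuron genes they were 77.9 to 82.6 and 70.1 to 73.1 CPM. Of the genes tested, 8 of 9 intestine, 9 of 10 muscle, 3 of 3 hypodermis and 3 of 8 somatic gonad markers passed the adjusted p-value and were lower. None of these 4 lists held a marker that was higher, and 5 of 13 oocyte and 4 of 9 neuron markers were lower. Ribosomal RNA genes took 13.6% to 14.9% of wildtype counts and 8.06% to 10.6% of *set-2* counts. These differences go with genotype, so they accompany every result below, and their part in the results was not tested. In dissected tissue fewer cells of a type and less RNA per cell cannot be told apart.

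Levels are given as CPM scaled by the TMM method of edgeR. The test between genotypes was the quasi-likelihood test of edgeR, run over all genes tested with Benjamini-Hochberg adjustment, and a gene is said to have risen or fallen where the adjusted p-value was at most 0.05. Fold changes are log2 values of *set-2* over wildtype. The targeted gene, *set-2*, had 149, 161 and 152 CPM in wildtype replicates 1, 2 and 3 and 87.3, 94.1 and 99.2 CPM in the *set-2(bn129)* replicates. It fell by 0.71 (standard error 0.050, edgeR adjusted p = 2.9e-06), and the genotypes did not overlap.

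Of the 33 members, 17 passed the adjusted p-value, and 10 of these had risen and 7 had fallen in the mutant. The background was 41.4% of all genes tested, 20.3% higher and 21.1% lower, so that the members' 51.5% lay near the share of any set of genes this well expressed: weighted by the expression classes the members fall in, the background was 47.4%. Without wildtype replicate 2 the count was 11, with 7 higher and 4 lower, and without *set-2(bn129)* replicate 2 the count of lower members was also 4. In these 2 fits 30.9% and 33.9% of all genes tested passed, in place of 41.4%. The changes of the members were small. The log2 fold changes reached from -0.29 to 0.23, with a median of 0.02 against 0.00 over all genes, and the median absolute change was 0.12. It was 0.13 for the 21 members in the highest of 5 expression classes, where that of all genes was 0.11, and 0.084 for the 8 members in the next class, against 0.11. By edgeR, 0 members met the adjusted p-value together with an absolute log2 fold change of 0.58, the fold limit of the study. Of all genes 15.3% did, but the share was 2.12% in the highest of the 5 expression classes and 2.49% in the next. It was 12.2% in the class of the other 4 members, and higher in the classes that hold no member. The members are too few for a count of 0 to differ clearly from such shares. The count of members was 0 with DESeq2 too, and 0 among the 20 members with an unadjusted edgeR p-value of at most 0.05. The 95% confidence intervals of the members lay between -0.44 and 0.32, so a change of 0.58 in either direction was outside the interval of each member.

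The genotypes did not overlap in 21 members (63.6%), with the *set-2* libraries above in 13 and below in 8, where 52.9% of all genes tested had no overlap. Scaling mattered for changes of this size. With total counts as library sizes the median of all genes moved up by 0.11, that of the members moved by as much, to 0.13, and of the members 16 were then higher and 2 lower. Of all genes tested, 48.5% passed in that fit. A total of 9 of the 17 calls held in all 13 alternative fits, those of *hcp-4*, *knl-1*, *him-10*, *bub-1*, *mdf-1*, *mdf-2* and *rod-1*, which rose, and of *cls-2* and *klp-7*, which fell. The like share over all called genes was not counted, so this count does not set the members apart from other genes.

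**Figure D1:**
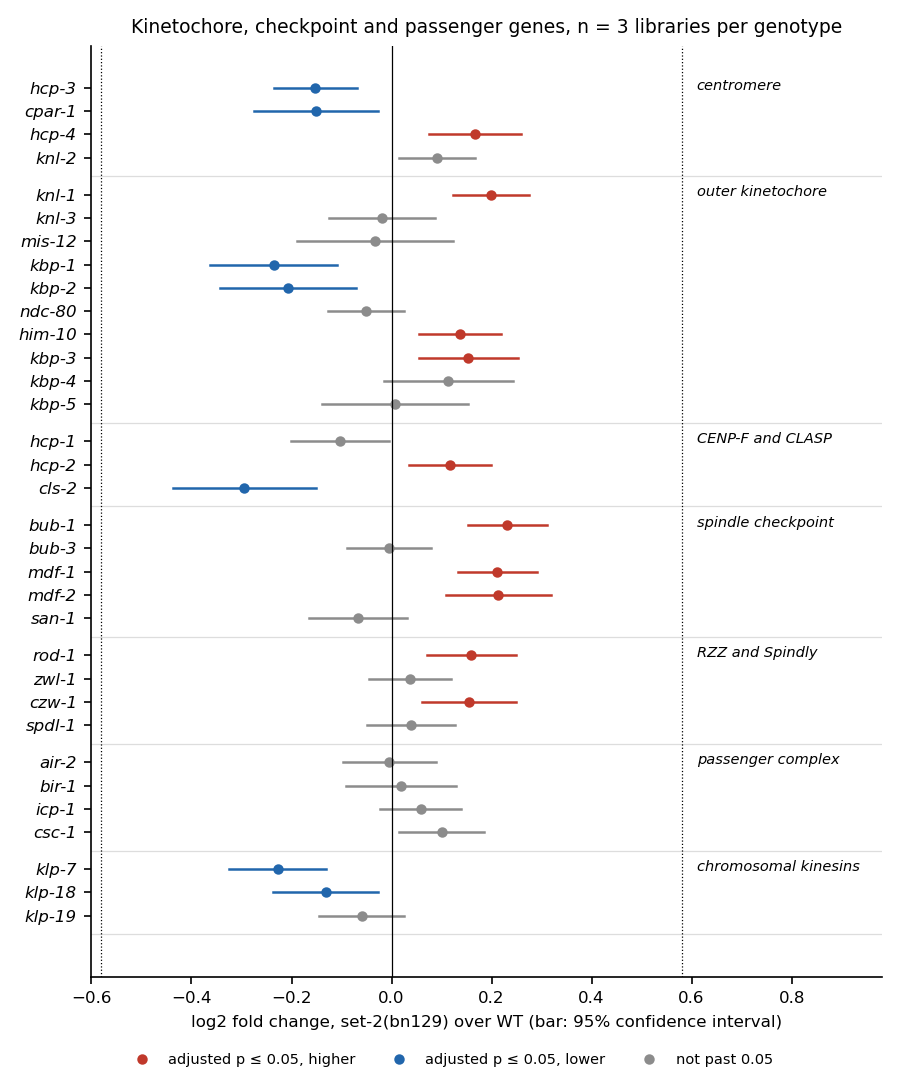
Log2 fold change (*set-2* over wildtype, horizontal axis) of each of the 33 members, with its 95% confidence interval, grouped by role. Red and blue points passed the adjusted p-value of 0.05 upward (10 genes) and downward (7 genes), and every interval lies inside the dotted lines at ±0.58.

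The centromere genes moved in opposite directions. *hcp-3* encodes CENP-A, the histone variant that marks the centromere, and had 167, 162 and 167 CPM in wildtype and 153, 143 and 150 CPM in *set-2* libraries. All mutant libraries lay below all wildtype libraries, and the gene fell by 0.15 (standard error 0.038, edgeR adjusted p = 0.0075). With total counts as library sizes its log2 fold change was -0.04 and the adjusted p-value 0.49. *cpar-1*, a second CENP-A gene, had 75.1, 85.9 and 86.0 CPM in wildtype and 76.6, 70.7 and 74.8 CPM in *set-2* libraries. These ranges overlapped through wildtype replicate 1, and its call (log2 fold change -0.15 with a standard error of 0.056, edgeR adjusted p = 0.049) was lost in 9 of 13 alternatives, a replicate block among them. Its edgeR adjusted p-value was 0.17 and 0.15 without wildtype replicates 2 and 3, and 0.058, 0.16 and 0.078 without *set-2(bn129)* replicates 1, 2 and 3. With DESeq2 it was 0.080, with upper quartile normalization 0.059 and with total counts 0.61. Both genes are on chromosome III of WBcel235, *hcp-3* from 9615306 to 9616470 and *cpar-1* from 9434057 to 9435100. They are paralogs, and whether reads were split between them or lost to the mapping quality filter was not tested.

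The remaining centromere genes were higher in the mutant. *hcp-4*, encoding CENP-C, which links centromeric chromatin to the outer kinetochore, had 393, 405 and 385 CPM in wildtype and 429, 435 and 464 CPM in *set-2* gonads. The genotypes were apart, with a rise of 0.17 (standard error 0.042, edgeR adjusted p = 0.0087). *knl-2*, whose product deposits CENP-A, went from 247 ± 1.66 CPM (SD, n = 3) to 263 ± 5.08 CPM (SD, n = 3). Its *set-2* libraries all lay above wildtype, but it did not pass (log2 fold change of 0.09, edgeR adjusted p = 0.053). *knl-2* was called in 4 of 13 alternatives. The edgeR adjusted p-value was 0.033 with upper quartile normalization and 0.0013 with total counts. It was 0.044 with no low count filter and 0.046 without *set-2(bn129)* replicate 1.

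Of the 10 outer kinetochore genes, whose products work together in stable complexes, 3 rose, 2 fell and 5 did not pass, a share of 50.0% near the 41.4% of all genes. *knl-1*, the scaffold of the network and the docking platform of the checkpoint, had 269, 272 and 278 CPM in wildtype and 314, 315 and 309 CPM in *set-2* libraries. This rise of 0.20 (standard error 0.035, edgeR adjusted p = 0.0010) was several times the spread between replicates, and no library of one genotype lay within the range of the other.

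Within the MIS-12 complex, which connects chromatin to the microtubule binders, both small subunits were lower. *kbp-1* had 31.4, 31.4 and 30.1 CPM in wildtype and 25.75, 26.03 and 27.02 CPM in *set-2* libraries, and fell by 0.24 (standard error 0.058, edgeR adjusted p = 0.0073). *kbp-2* had 28.2, 27.9 and 28.2 CPM in wildtype and 25.3, 23.2 and 24.6 CPM in the mutant, and fell by 0.21 (standard error 0.062, edgeR adjusted p = 0.020). Neither gene's libraries overlapped between genotypes. The call of *kbp-1* was lost with total counts (adjusted p = 0.13). That of *kbp-2* was lost in 5 alternatives, with edgeR adjusted p-values of 0.053 without wildtype replicate 2, 0.071 without *set-2(bn129)* replicate 2 and 0.29 with total counts, and of 0.060 with DESeq2 and with no low count filter. *kbp-2* lies 18543 bp from *set-2* on chromosome III, and its exons overlap those of *tag-340* on the opposite strand. *mis-12* (35.2 ± 2.07 and 34.4 ± 2.90 CPM, SD, n = 3) and *knl-3* (127 ± 5.69 and 125 ± 6.93 CPM, SD, n = 3), the larger partners in this complex, overlapped between genotypes, and their intervals reached from -0.19 to 0.12 and from -0.13 to 0.09.

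The NDC-80 complex, the main microtubule contact, was also divided. *ndc-80* had 191, 189 and 196 CPM in wildtype and 186, 185 and 185 CPM in *set-2* gonads. The mutant libraries were all lower, yet the log2 fold change of -0.05 did not pass (edgeR adjusted p = 0.25). *him-10*, the worm Nuf2, went from 128 ± 1.498 to 141 ± 4.64 CPM (SD, n = 3) and rose by 0.14 (edgeR adjusted p = 0.013). *kbp-3* had 85.5, 83.6 and 88.8 CPM in wildtype and 95.3, 90.9 and 100.3 CPM in the mutant, a rise of 0.15 (standard error 0.045, edgeR adjusted p = 0.019) that was not called without wildtype replicate 2 (adjusted p = 0.086) or without *set-2(bn129)* replicate 3 (adjusted p = 0.073). *kbp-4* overlapped between genotypes and did not pass (log2 fold change of 0.11, edgeR adjusted p = 0.14), but was called with total counts (edgeR adjusted p = 0.014). *kbp-5*, for a protein found with KNL-1, did not differ beyond its spread (59.0 ± 4.81 and 59.2 ± 4.22 CPM, SD, n = 3).

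**Figure D2:**
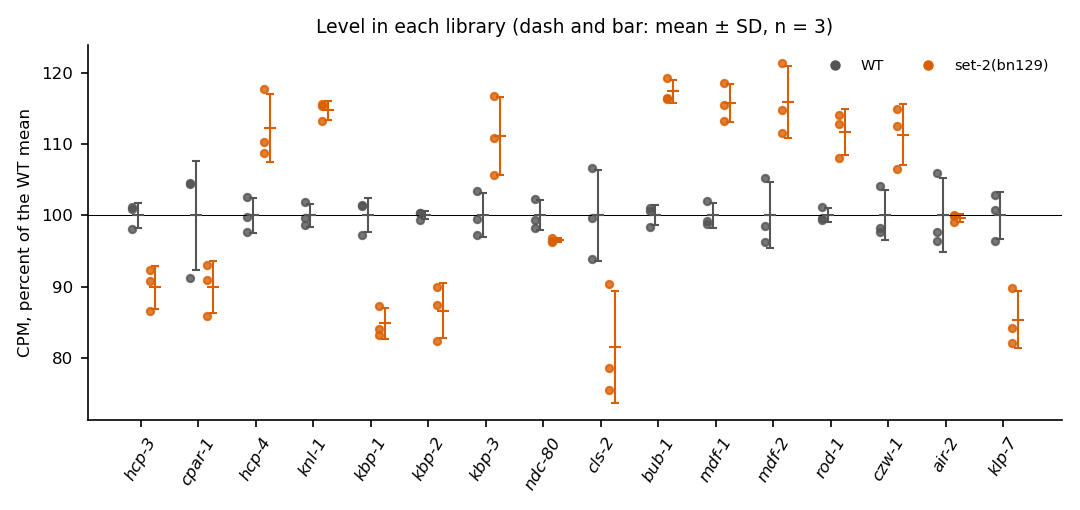
Level of 16 members in each library, as a percentage of the wildtype mean CPM (vertical axis), with wildtype in grey, *set-2(bn129)* in orange and the mean ± SD of 3 libraries beside the points. The genotypes are apart for 14 of the 16 genes shown, and overlap for *cpar-1* and *air-2*. Most of the genes shown were picked for having no overlap. Of all 33 members 21 had none (63.6%), and of all genes tested 52.9%.

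*hcp-1* and *hcp-2*, the 2 CENP-F-like genes, whose proteins bring the CLASP protein CLS-2 to kinetochores, went in opposite directions. *hcp-1* had 795, 793 and 769 CPM in wildtype and 693, 738 and 762 CPM in *set-2* libraries, lower in all 3 but not past the test (log2 fold change of -0.10, edgeR adjusted p = 0.083). *hcp-2* had 397, 406 and 404 CPM in wildtype and 424, 447 and 438 CPM in the mutant, and rose by 0.12 (standard error 0.037, edgeR adjusted p = 0.027). The *hcp-2* call did not hold without any one of 5 libraries: without wildtype replicates 1, 2 and 3 the adjusted p-value was 0.073, 0.067 and 0.062, and without *set-2(bn129)* replicates 2 and 3 it was 0.073 and 0.068. The ratio of the pair, which does not depend on how libraries are scaled, was examined after its values were seen. *hcp-1* stood at 190.3% to 200.4% of *hcp-2* in wildtype and at 163% to 174% in *set-2* libraries, a description of the pair with no test.

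*cls-2* itself, which promotes microtubule growth at kinetochores and in the anaphase spindle, showed the largest change among the members with TMM scaling. With total counts it was at -0.18, and *bub-1*, at 0.35, was farther from 0. It had 275, 294 and 259 CPM in wildtype and 208, 217 and 249 CPM in *set-2* gonads. The mutant libraries were all lower, with replicate 3 closest to wildtype, and the gene fell by 0.29 (standard error 0.065, edgeR adjusted p = 0.0042). It maps to chromosome III, from 9055048 to 9058895. The other CLASP genes went the other way from much lower levels: *cls-1* had 2.39 ± 0.410 and 4.09 ± 0.490 CPM (SD, n = 3), a rise of 0.78 (edgeR adjusted p = 0.0060), and *cls-3* had 8.93 ± 0.419 and 12.6 ± 1.10 CPM (SD, n = 3), a rise of 0.50 (edgeR adjusted p = 0.0027). Per kb of exon, *cls-2* stood at 82.5 CPM in wildtype, *cls-3* at 2.87 and *cls-1* at 0.559.

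Spindle checkpoint genes, whose products hold back anaphase when kinetochores are unattached, included the largest rises among the members. Of 5 genes 3 rose and none fell, where 20.3% of all genes were higher and 21.1% lower, and 5 genes are too few to set against such shares. *bub-1*, encoding the kinase that BUB-3 anchors at kinetochores and that also acts in oocyte meiosis, had 426, 425 and 415 CPM in wildtype and 491, 492 and 503 CPM in *set-2* libraries. The groups were far apart against their spread, with a rise of 0.23 (standard error 0.036, edgeR adjusted p = 5.4e-04). *mdf-1*, the worm Mad1, had 240.2, 241 and 248 CPM in wildtype and 288, 275 and 281 CPM in the mutant, a rise of 0.21 (standard error 0.036, edgeR adjusted p = 8.8e-04).

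*mdf-2*, encoding Mad2, the partner of Mad1 and an inhibitor of the anaphase promoting complex, had 68.6, 67.0 and 73.2 CPM in wildtype and 84.5, 77.6 and 79.9 CPM in *set-2* gonads. Its libraries were also apart, with a rise of 0.21 (standard error 0.048, edgeR adjusted p = 0.0046), though its exons overlap those of another gene on each strand. The 3 rises held in all 13 alternatives, with a highest adjusted p-value of 0.028, for *mdf-2* without wildtype replicate 2. *bub-3* (114 ± 4.10 and 113 ± 0.801 CPM, SD, n = 3) and *san-1*, the worm Mad3 (87.7 ± 2.02 and 83.7 ± 4.10 CPM, SD, n = 3), overlapped between genotypes, with intervals from -0.09 to 0.08 and from -0.17 to 0.03. *bub-1* stood at 361% to 389% of *bub-3* in wildtype and at 430.4% to 443% in *set-2* libraries, a ratio chosen after its values were seen and given with no test.

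The Rod, Zwilch and Zw10 (RZZ) complex and Spindly bring dynein and Mad1 to kinetochores. Of their 4 genes 2 rose and none fell, again beside 20.3% and 21.1% of all genes, and 4 genes are too few to set against such shares. *rod-1*, the largest subunit, had 957, 960 and 974 CPM in wildtype and 1041, 1099 and 1087 CPM in *set-2* libraries, and rose by 0.16 (standard error 0.041, edgeR adjusted p = 0.0093). *czw-1*, encoding Zw10, had 311, 313 and 332 CPM in wildtype and 366, 359 and 340 CPM in the mutant, and rose by 0.155 (standard error 0.043, edgeR adjusted p = 0.013). Both pairs of groups were apart, but *czw-1* was not called without wildtype replicate 2 (adjusted p = 0.059). *zwl-1* (139 ± 2.20 and 143 ± 4.75 CPM, SD, n = 3) and *spdl-1* (113 ± 2.32 and 116 ± 4.49 CPM, SD, n = 3) overlapped between genotypes, with intervals from -0.05 to 0.12 and from -0.05 to 0.13. With total counts both were called (edgeR adjusted p = 0.016 and 0.0099).

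None of the 4 chromosomal passenger genes passed, by edgeR or by DESeq2, where 41.4% and 28.6% of all genes did. A group of 4 genes is too small to set against such shares. At an unadjusted p-value of 0.05, edgeR passed 1 of the 4 passenger genes, *csc-1*, and DESeq2 0. Calls were gained in other edgeR fits, for *csc-1* with upper quartile normalization (adjusted p = 0.037), with total counts (adjusted p = 0.0025) and without *set-2(bn129)* replicate 3 (adjusted p = 0.039), and for *icp-1* with total counts (adjusted p = 0.0042). *air-2*, the Aurora B kinase of the complex, had 99.1, 97.9 and 107 CPM in wildtype and 101, 100.5 and 102 CPM in *set-2* libraries, all within the wildtype range (log2 fold change of -0.005, 95% confidence interval from -0.10 to 0.09, edgeR adjusted p = 0.94). *bir-1*, the worm survivin, also overlapped (52.8 ± 0.741 and 53.4 ± 3.00 CPM, SD, n = 3). The mutant libraries of *icp-1*, encoding INCENP, the activator of the kinase, were all above wildtype (227 ± 7.50 and 237 ± 1.17 CPM, SD, n = 3, edgeR adjusted p = 0.23), as were those of *csc-1*, encoding a Borealin-related subunit (81.3 ± 0.851 and 87.1 ± 2.77 CPM, SD, n = 3, edgeR adjusted p = 0.060). Of all genes tested, 52.9% had no overlap between genotypes.

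The chromosomal kinesins were the one group whose estimates were all below 0 with TMM scaling, and 2 of the 3 fell. Of all genes 21.1% were lower, and 3 genes are too few to set against such a share. With total counts *klp-19* was at 0.055 and *klp-18* at -0.019, and of the 3 only *klp-7* was called. *klp-7*, the kinesin-13 that depolymerizes microtubules at kinetochores, had 315, 321 and 301 CPM in wildtype and 256, 263 and 281 CPM in *set-2* gonads. All mutant libraries lay below wildtype, and the gene fell by 0.23 (standard error 0.044, edgeR adjusted p = 0.0018). *klp-18*, a kinesin-12 needed for a bipolar oocyte spindle, went from 320 ± 13.5 to 292 ± 16.3 CPM (SD, n = 3). Its libraries overlapped, through wildtype replicate 3 and mutant replicate 3, and its call (log2 fold change of -0.13, edgeR adjusted p = 0.046) was lost in 7 alternatives, a replicate block among them. In the others the adjusted p-value was 0.12 when wildtype replicate 1 was left out, 0.15 when wildtype replicate 2, *set-2(bn129)* replicate 1 or *set-2(bn129)* replicate 2 was, 0.073 with upper quartile normalization and 0.76 with total counts. *klp-19*, a kinesin-4 that moves chromosomes toward the spindle equator, had 816 ± 16.9 and 783 ± 9.99 CPM (SD, n = 3), with all mutant libraries lower and no call (edgeR adjusted p = 0.24).

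Ratios between groups of genes do not depend on the scaling of the libraries. They were chosen after the values were seen, with groups that had moved apart, so they are a description and their separation is no further support. The summed CPM of the 5 checkpoint genes was 63.1% to 66.7% of that of the 3 kinesins in wildtype and 76.5% to 81.2% in *set-2* libraries. For the RZZ and Spindly genes it was 103% to 110.3% in wildtype and 122% to 128.5% in the mutant. The ratio of *cpar-1* to *hcp-3*, by contrast, had a mean of 49.8% in both genotypes, with an SD over 3 libraries of 4.24 in wildtype and 0.354 in the mutant.

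**Figure D3:**
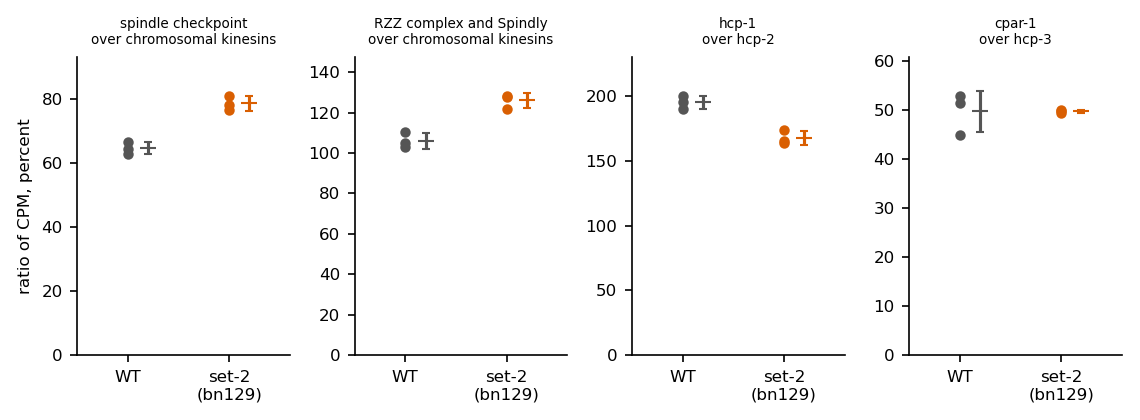
Ratio of CPM in percent (vertical axes, from 0) in each wildtype (grey) and *set-2(bn129)* (orange) library, with the mean ± SD of 3 libraries. The checkpoint to kinesin, RZZ to kinesin and *hcp-1* to *hcp-2* ratios do not overlap between genotypes, and the *cpar-1* to *hcp-3* ratio does.

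To compare genes with each other, levels were divided by the length of exon. The members stood at 37.2 to 225 CPM per kb in wildtype, a 6.05-fold range against a median of 19.7 CPM per kb over all genes tested. *klp-19* was highest at 225 CPM per kb, followed by *kbp-3* at 179 and *hcp-1* at 168, and *mdf-2* was lowest at 37.2. The passenger genes were the most even group, from 78.4 (*bir-1*) to 109.5 CPM per kb (*icp-1*), a 1.40-fold range. The 10 outer kinetochore genes spanned a 4.16-fold range, from *mis-12* at 43.0, with *kbp-2* at 45.3 and *kbp-1* at 53.9, to *kbp-3* at 179.

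*hcp-3* stood at 163 CPM per kb, above *cpar-1* at 91.8. In the mutant 6 of the 33 members kept the same place in the order, and no member moved by more than 6 places. The gene that moved 6 places was *klp-7*, from place 8 to 14. *rod-1*, *hcp-4* and *bub-1* each passed *hcp-1* and *hcp-3* in the mutant. Lengths came from the annotation, and neighbours could be closer than the spread of their replicates, as *ndc-80* at 100.4 and *hcp-2* at 100.1 CPM per kb were.

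**Figure D4:**
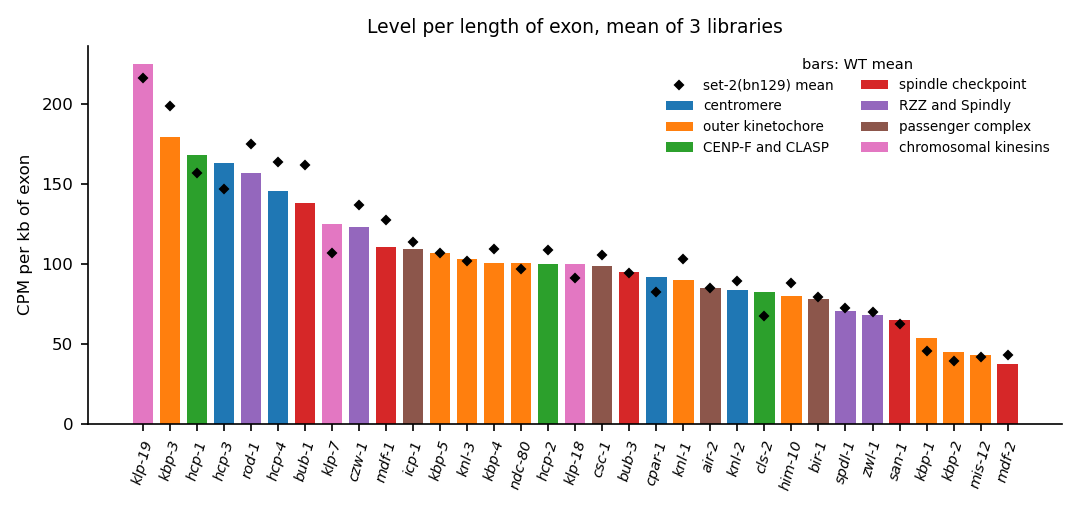
Mean level of each member in CPM per kb of exon (vertical axis, from 0), with bars for wildtype coloured by role and diamonds for *set-2(bn129)*. The order runs from *klp-19* at 225 to *mdf-2* at 37.2 in wildtype, and the diamonds follow the bars.

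The members were well expressed and reproducible. With all genes tested ranked by mean log2 CPM and divided into 5 classes of equal size, 21 members fell in the highest class, 8 in the fourth and 4 in the third. In those classes 12, 3 and 2 members passed the adjusted p-value, where 48.6%, 45.4% and 44.8% of all genes did. Few genes of this level were past the fold limit as well, 2.12% in the highest class and 2.49% in the fourth. The coefficient of variation between wildtype replicates had a median of 2.31% over the members and reached 8.15% (*kbp-5*), and between *set-2* replicates it had a median of 3.86% and reached 9.59% (*cls-2*). Exons of 11 members overlap those of another gene, 10 of them on the opposite strand. Among the called members these are *hcp-3*, *kbp-1*, *kbp-2* and *mdf-2*. The mode and strand setting of the counting are not stated, so how reads over such exons were counted is not known.

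**Figure D5:**
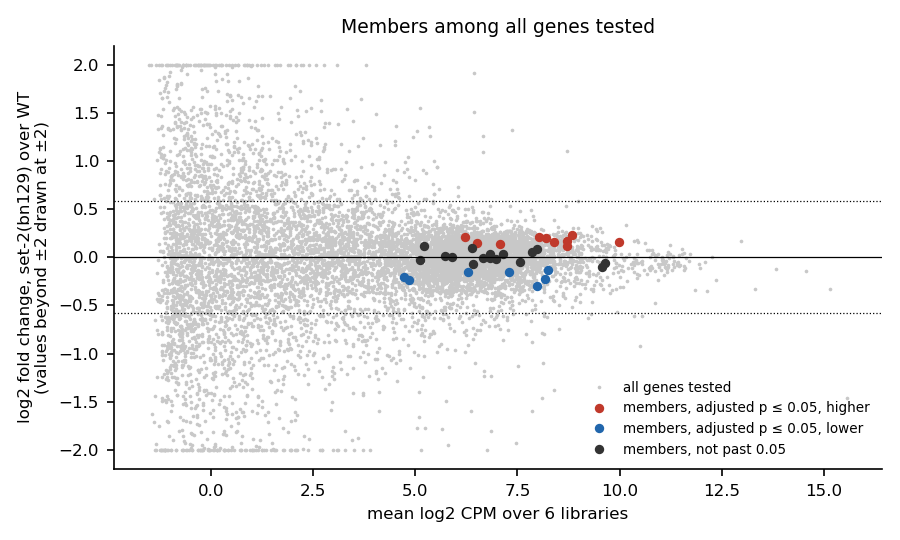
Log2 fold change (*set-2* over wildtype, vertical axis, drawn at ±2 beyond that) against mean log2 CPM of the 6 libraries for the 9431 genes tested, with the 33 members in colour. The members lie toward the right, where the cloud is narrow, between the dotted lines at ±0.58.

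Other genes of chromosome segregation were taken from 4 lists written from general knowledge, with earlier results of these data known. Of their 74 genes 73 were tested, *dnc-5* having 0 counts in every library, and 21 rose and 11 fell, 43.8% against the background of 41.4%. That background was 38.1% and 30.9% without wildtype replicates 1 and 2, 48.5% with total counts and 28.6% with DESeq2. Among 18 regulators of the checkpoint and centromere, 9 rose and 3 fell (66.7%), but the count of 12 was 6 without wildtype replicate 1 and 7 without wildtype replicate 2. *gsp-1*, a catalytic subunit of protein phosphatase 1, fell by 0.31 (95.3 ± 3.41 to 76.9 ± 5.60 CPM, SD, n = 3, edgeR adjusted p = 9.3e-04), while its close paralog *gsp-2* rose by 0.22 (327 ± 4.85 to 381 ± 13.1 CPM, SD, n = 3, edgeR adjusted p = 0.0010). *ubc-9*, the SUMO-conjugating enzyme, fell by 0.29 (244 ± 11.3 to 200.3 ± 4.77 CPM, SD, n = 3, edgeR adjusted p = 3.4e-04).

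Downstream of the checkpoint, 3 of 16 genes of the anaphase promoting complex and separase rose and 2 fell (31.2%, against 41.4% of all genes). The count of 5 was 2 without wildtype replicate 2, 3 with DESeq2 and 8 with total counts. *ify-1*, the worm securin and a substrate of that complex, had 199.5, 195 and 208 CPM in wildtype and 276, 265 and 270.0 CPM in *set-2* libraries. This was the largest rise in the list, 0.43 (standard error 0.038, edgeR adjusted p = 1.4e-05), and a wide gap separated the genotypes. *gfi-3* rose by 0.29 and *apc-10* fell by 0.16 (edgeR adjusted p = 0.023 and 0.016). Both encode subunits of the complex, and both calls were lost in several alternatives. The *gfi-3* adjusted p-value was 0.062 and 0.078 without wildtype replicates 2 and 3, and 0.071 and 0.055 without *set-2(bn129)* replicates 2 and 3. That of *apc-10* rose to 0.057 when wildtype replicate 3 was removed, to 0.053 when *set-2(bn129)* replicate 2 was removed, to 0.066 with DESeq2, to 0.082 with no low count filter and to 0.50 with total counts.

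Of 14 tested dynein and dynactin genes, whose motor the RZZ complex and Spindly recruit, 2 rose and 2 fell (28.6%, against 41.4% of all genes). The count of 4 was 2 without wildtype replicate 1 and 10 with total counts. *lis-1*, a dynein regulator, fell by 0.26 (103 ± 1.63 to 86.0 ± 4.30 CPM, SD, n = 3, edgeR adjusted p = 7.2e-04). *arp-11* and *dnc-4*, of the dynactin complex, rose by 0.18 and 0.16 (edgeR adjusted p = 0.0054 and 0.016, the latter 0.062 without wildtype replicate 1).

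Among 25 genes of the spindle and midzone, 7 rose and 4 fell, where 20.3% of all genes were higher and 21.1% lower. Of the 25, 2 passed the fold limit too. They are *cls-1*, given above, and *tpxl-1*, encoding the activator that localizes Aurora A to spindle microtubules. In the expression class of *cls-1*, the next to lowest, 30.8% of all genes passed both thresholds. In that of *tpxl-1*, the highest, 2.12% did. *tpxl-1* had 142, 145 and 129.7 CPM in wildtype and 78.9, 81.0 and 94.3 CPM in *set-2* gonads. It fell by 0.71 (standard error 0.066, edgeR adjusted p = 1.7e-05), with no overlap, and it shares exonic bases with a gene of the other strand.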

How the data were processed

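RNA-seq was carried out on dissected gonads of wildtype (N2) and *set-2(bn129)* animals, 3 biological replicates each. The deposited values are counts per gene without normalization. The authors mapped the 50 nt single reads to WS254 with STAR 2.4.1d, removed reads with a mapping quality under 10 (SAMtools 0.1.19) and counted with htseq-count 0.7.2. The counting mode and strand setting are not given in the sources used here. A deposited table of the authors' own comparison (gene numbers at each step) was not used.

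Symbols came from a WormBase name table, and positions, exon lengths and overlaps from Ensembl release 115 (WBcel235), in which 46549 of 46772 identifiers were found. Genes were filtered with filterByExpr and tested with edgeR 4.0.16 (R 4.3.3; TMM, estimateDisp, glmQLFit, glmQLFTest) over all 9431 genes, with genotype as the only term and Benjamini-Hochberg adjustment. Intervals are 95% and come from the fit. The fits were tested on simulated data. There were 13 alternatives: 3 other scalings, 2 other low count filters (1 count in any library, or every library at 10 counts), a replicate block, DESeq2 1.42.0 in place of edgeR, and the removal of each library.

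Named genes are *set-2*, 7 central subunits, up to 8 members per direction with the largest changes and no overlap between genotypes, and up to 3 such genes per pathway list. Other members are given by their values. The members and lists were chosen with earlier results of these data known. CPM are counts per scaled library size, 1 CPM being 23.5 to 31.1 counts.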

Additional observations from a re-analysis of the deposited data

How the results depend on the processing

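Members past both thresholds numbered 0 in all 13 alternatives. With total counts as library sizes, 16 members were higher and 2 lower past the adjusted p-value, and their median log2 fold change was 0.13 in place of 0.02, since the median of all genes moved by 0.11. In that fit 48.5% of all genes tested passed. Over the fits without one library, the count past the adjusted p-value ran from 11 (without wildtype replicate 2) to 16, with 7 to 11 higher and 4 to 6 lower, the lowest when replicate 2 of either genotype was left out. Of all genes tested, 30.9% passed in the fit with 11 and 34.2% in that with 16. The median of the members ran from -0.004 to 0.056. Calls were lost for 8 of the 17 members in at least one alternative, and 10 of the 16 others passed in none. The like shares over all genes were not counted.

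Direction turned for 10 members, none of which had passed. With total counts *knl-3* was at 0.10, *mis-12* at 0.081, *ndc-80* at 0.063, *hcp-1* at 0.0099, *bub-3* at 0.11, *san-1* at 0.047, *air-2* at 0.11 and *klp-19* at 0.055 on the log2 scale. With upper quartile normalization *bub-3* was at 0.0089 and *air-2* at 0.0097. With no low count filter *knl-3* was at 0.0029, *bub-3* at 0.016 and *air-2* at 0.017. Without one library, *knl-3* ran from -0.063 to 0.016, *mis-12* from -0.097 to 0.020, *kbp-5* from -0.062 to 0.059, *bub-3* from -0.032 to 0.016, *air-2* from -0.032 to 0.036 and *bir-1* from -0.0081 to 0.064.

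Replicate numbers did not pair the samples: the correlation of same-numbered libraries' deviations from their genotype means was -0.086, -0.048 and -0.171, and no sample correlated best with its own number. With a replicate block 14 members passed, 9 higher and 5 lower, and 3458 genes in all against 3908. The block ended the calls of *cpar-1* (edgeR adjusted p = 0.075), *hcp-2* (0.056) and *klp-18* (0.088). The cause of these differences was not tested. The members with the fewest counts, *kbp-1*, *kbp-4*, *kbp-2* and *mis-12*, had standard errors of 0.058 to 0.071, against 0.034 for *ndc-80*. A change near 0.11, as for *kbp-4*, did not pass at that precision. Precision did not follow counts alone, since *cls-2* and *kbp-5* had more counts and standard errors of 0.065 and 0.067.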

Other observations

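The calls among the members were not spread evenly over the chromosomes, a pattern noticed after the values were seen. Chromosome III, which carries *set-2*, holds 10 of the 33 members. Of these 10, 6 fell (*hcp-3*, *cpar-1*, *kbp-1*, *kbp-2*, *cls-2* and *klp-7*) and 2 rose (*knl-1* and *him-10*), with a median log2 fold change of -0.15. Of the 23 members on other chromosomes, 1 fell (*klp-18*, on chromosome IV) and 8 rose. Genes of chromosome III as a whole did not show this, with 20.4% lower and 20.7% higher of 1764 genes tested and a median of 0.02. Of the 6 that fell, *cpar-1*, *kbp-2*, *hcp-3* and *kbp-1* lost the call in some alternative fit, and *cls-2* and *klp-7* kept it in all 13. No member maps to the X chromosome.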
